A study of Homo sapiens with 9 samples.

Results

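The transcriptional response of EPC2 cells to a plasmid carrying FOXF1 was measured against cells that received nothing. EPC2 is described by the labels as an epithelial cell line from normal human esophagus. The comparison used 6 of the 9 libraries of the study, 3 from cells transfected with the FOXF1 plasmid by the lipid reagent Lipofectamine 2000 and 3 from untreated cells, chosen by their labels alone. The other 3 libraries came from cells given an empty vector with the same reagent. The labels list the untreated cells apart from those given lipid, so a difference from them combines the response to transfection with the response to FOXF1, and within this contrast these cannot be told apart. The vector's calls against the same untreated libraries are therefore given beside those of each gene list described, and the FOXF1 plasmid was tested directly against the vector. The labels call the libraries biological triplicates and give all 9 the same cell line. They give the genotype as control for untreated and vector cells, and as overexpression of Forkhead box F1 for the plasmid cells. The plasmid's promoter, its dose and the time from transfection to harvest were not given in the sources used here.

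FOXF1 is a forkhead transcription factor that acts downstream of Hedgehog signalling in the mesenchyme of the foregut and lung. The series title links its overexpression to Barrett's-like metaplasia, the replacement of squamous by columnar lining in the esophagus, and to wound repair. Several of the gene groups described here belong to stress programmes. When unfolded proteins accumulate in the endoplasmic reticulum (ER), the sensors ATF6, IRE1 and PERK raise chaperones, export machinery and degradation factors. PERK and related kinases also phosphorylate the initiation factor eIF2, which favours translation of ATF4. ATF4 in turn activates genes for amino acid supply and tRNA charging, the integrated stress response. Hypoxia-inducible factors (HIF) act on a separate set of genes for oxygen supply and glycolysis.

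Library totals lay between 34390666 and 39973289 counts. A gene without a read in a library could have had a level of up to 0.075 to 0.087 CPM, which are read counts scaled to a common library size, taking 3 reads as the limit. On the first principal component, which held 45.6% of the variance, the untreated libraries lay between -22.97 and -11.7, the FOXF1 plasmid libraries between 0.19 and 5.87, and the vector libraries between 4.6 and 18.66. Vector replicate 1 lay among the FOXF1 plasmid libraries. Genes of the mitochondrial genome took 20.9% ± 2.0 (SD, n = 3) of the counts in untreated cells, 14.1% ± 0.53 (SD, n = 3) with the FOXF1 plasmid and 11.2% ± 0.81 (SD, n = 3) with the vector, and the groups did not overlap. This share moved with every comparison given here, and its part in the results was not tested beyond the fits without those genes and with other scalings.

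**Figure D1:**
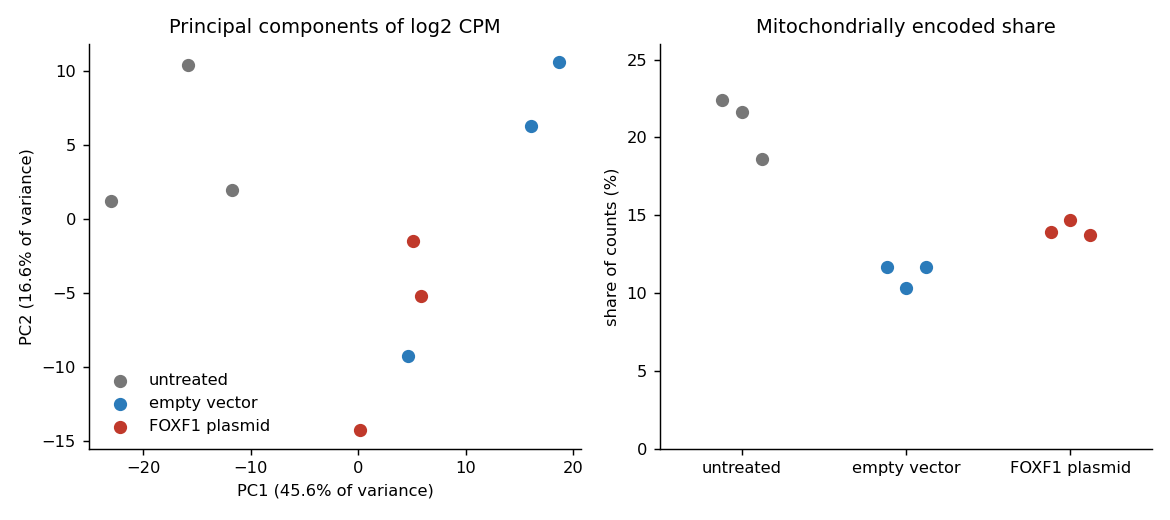
Left, the 9 libraries on the first and second principal components of log2 CPM. Right, the percent of counts from the mitochondrial genome in each library (dots). The 3 untreated libraries lie apart from the 6 transfected libraries on the first component and have the highest mitochondrial shares.

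The cells did not carry the defining transcripts of the squamous lining of the esophagus. All 6 squamous markers examined were below 1 CPM in all 9 libraries. TP63, the master regulator of the basal squamous layer, had no read in any library, and KRT5 had 8 to 19 reads. The simple-epithelium keratins KRT8, KRT18 and KRT7 lay between 1060 and 1470 CPM by library total. The other simple-epithelium markers examined were far lower, EPCAM at 3.85 to 5.69 CPM and CDH1 at 7.48 to 12.4 CPM. Among 9 fibroblast and mesenchyme markers, VIM, COL1A1 and THY1 lay at 734 CPM or more in each library, whereas COL1A2 and LUM had no read. The 5 endothelial markers were below 1 CPM throughout, and of 5 leukocyte genes PTPRC, CD3E and LYZ had no read and CD68 had 1 to 8 reads, but CD14 had 306 to 462 reads in each library. The summed squamous level was 0.276 to 0.525 CPM in untreated cells and 0.358 to 0.597 CPM with the FOXF1 plasmid, so a low squamous level was shared by both groups. The cells are named EPC2 as the labels do.

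Because 14 of 24 tested ER chaperone genes were called higher, the promoters of the called genes were read for the ER stress response element, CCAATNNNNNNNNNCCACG on either strand, to which NF-Y and ATF6 bind. Promoters were the 250 bases upstream of each RefSeq start on GRCh38.p14, and 11460 of the 16366 tested genes had at least 1. The element lay in 26 of 35116 promoters of the table (0.074%), in 17 of 16558 promoters of tested genes (0.103%) and in 8 of 822 promoters of genes called higher (0.973%). It lay in 0 of 702 promoters of genes called lower, and in 8 of 28 promoters (28.6%) of the ER chaperone list. Of 16 tested genes that carried it, 7 were called higher, 0 were called lower and 9 were not called, among them SERP1 and FICD. All of the 7 but XBP1 belong to the ER chaperone list, whose calls led to the search. The shares in called genes and in that list therefore rest largely on the same genes and are not independent. CANX counts with 2 promoters in both. The elements of the 7 called genes are shown in the direction of the motif, with the matched letters in capitals and the spacer in lower case. HSP90B1 has 2 copies.
HSPA5: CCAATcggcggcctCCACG
HSP90B1 distal: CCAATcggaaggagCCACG
HSP90B1 proximal: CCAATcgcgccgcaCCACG
CALR: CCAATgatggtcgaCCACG
CANX: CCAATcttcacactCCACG
CRELD2: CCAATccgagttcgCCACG
PDIA6: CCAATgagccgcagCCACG
XBP1: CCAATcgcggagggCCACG

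The spacers differ from gene to gene, and only the letters at both ends are fixed by the search. The upstream regions of HSPA5 (chr9:125241344-125241593, minus strand) and HSP90B1 (chr12:103930160-103930409, plus strand) show where the element sits, in capitals, in the order of transcription. A capital run that starts with CGTGG is the element read on the opposite strand.
HSPA5 upstream: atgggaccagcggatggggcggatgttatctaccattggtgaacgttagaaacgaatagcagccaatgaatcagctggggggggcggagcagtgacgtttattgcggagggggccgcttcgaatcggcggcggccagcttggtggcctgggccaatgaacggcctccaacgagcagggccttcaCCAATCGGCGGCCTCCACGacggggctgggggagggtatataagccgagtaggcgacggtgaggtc
HSP90B1 upstream: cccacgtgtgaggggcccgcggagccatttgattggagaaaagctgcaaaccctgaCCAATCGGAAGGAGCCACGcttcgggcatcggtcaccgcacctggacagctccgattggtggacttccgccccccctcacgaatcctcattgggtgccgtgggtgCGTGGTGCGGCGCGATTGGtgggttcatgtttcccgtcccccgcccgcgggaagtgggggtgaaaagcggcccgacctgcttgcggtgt

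For the amino acid branch, the C/EBP-ATF element TGATGNAA, which ATF4 binds with a C/EBP partner, was read in the same windows. It lay in 1.65% of the promoters of tested genes, in 3 of 30 promoters of the integrated stress response list and in 3 of 26 of the amino acid list. It lay in 2.19% of promoters of genes called higher and in 2.42% of those called lower. ASNS, asparagine synthetase (chr7:97872409-97872658, minus strand), and CHAC1, a glutathione-degrading enzyme (chr15:40953221-40953470, plus strand), are shown with the element in capitals. In CHAC1 it is on the opposite strand.
ASNS upstream: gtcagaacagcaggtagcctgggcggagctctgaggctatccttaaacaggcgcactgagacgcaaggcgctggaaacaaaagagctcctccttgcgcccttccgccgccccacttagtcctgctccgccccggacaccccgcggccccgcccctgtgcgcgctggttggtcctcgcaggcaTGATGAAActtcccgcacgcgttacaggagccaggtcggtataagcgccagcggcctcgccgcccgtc
CHAC1 upstream: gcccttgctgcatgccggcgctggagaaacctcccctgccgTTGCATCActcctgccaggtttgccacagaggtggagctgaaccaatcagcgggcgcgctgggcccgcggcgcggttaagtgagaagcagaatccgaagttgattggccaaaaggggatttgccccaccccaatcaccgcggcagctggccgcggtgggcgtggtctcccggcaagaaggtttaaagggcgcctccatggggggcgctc

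A match is a string of letters in a window and does not show that a factor was bound. The hypoxia core ACGTG lay in 13 of 27 promoters of the hypoxia list (48.1%) and in 22.1% of the promoters of tested genes, but its share was higher still in the ER export and degradation list (21 of 33, 63.6%). The cell cycle homology region, TTTGAA, lay in 20 of 40 promoters of the mitosis list (50%) and in 8.73% of the promoters of tested genes.

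Across 16366 tested genes, 757 (4.63%) were called higher and 637 (3.89%) lower with the FOXF1 plasmid than in untreated cells by edgeR's quasi-likelihood test at a Benjamini-Hochberg adjusted p of 0.05. Most differences were modest. At least 1.5-fold differences were seen for 222 of the higher and 91 of the lower genes, and at least 2-fold for 69 and 14. All 3 FOXF1 plasmid libraries lay above all 3 untreated libraries for 2305 genes (14.1%) and below them for 2056 (12.6%). The empty vector against the same untreated libraries gave 1676 genes called higher (10.2%) and 1533 called lower (9.37%). Counts called in the gene lists below stand beside these shares, 4.63% and 3.89% with the FOXF1 plasmid and 10.2% and 9.37% with the vector. The split of calls depended on scaling. Of the calls, 54.3% were higher with trimmed-mean (TMM) scaling and 92.8% with library totals alone (2320 higher, 180 lower), where the median of all genes shifted to a log2 fold change of 0.16 from 0.016. Single libraries also moved the counts. The higher genes numbered 465, 440 and 468 without untreated replicate 1, untreated replicate 2 and FOXF1 plasmid replicate 2. The lower genes numbered 418, 377 and 350 without untreated replicate 1, untreated replicate 2 and FOXF1 plasmid replicate 3.

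**Figure D2:**
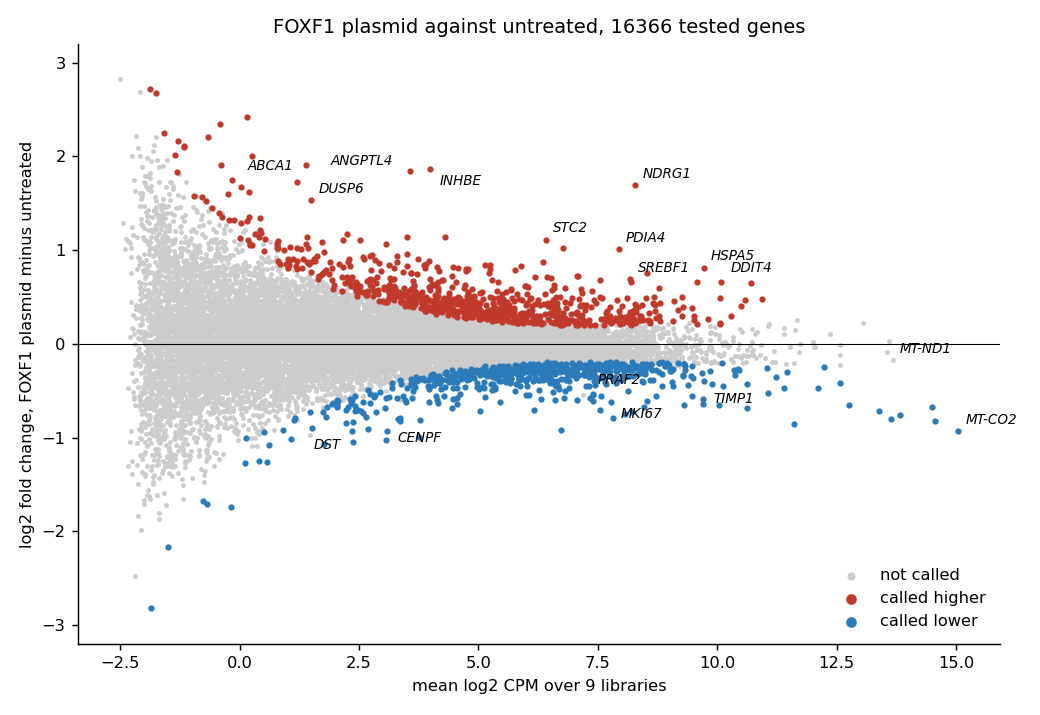
Log2 fold change, FOXF1 plasmid minus untreated, against the mean log2 CPM over 9 libraries, 1 dot per tested gene, coloured by call. Genes called higher include NDRG1 and ER chaperones at high levels, while mitochondrially encoded genes form the lower right edge. FOXF1 and 2 genes at low levels lie outside the vertical range.

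FOXF1 (chr16:86510527-86515418, plus strand) was nearly absent without the plasmid. The untreated libraries held 1, 0 and 0 reads, the vector libraries 0, 0 and 6, and the FOXF1 plasmid libraries 367, 184 and 141. In CPM on TMM-scaled library sizes, the unit used from here on, the plasmid libraries stood at 9.12, 5.41 and 3.76. The 3 plasmid libraries were far above all others but differed among themselves beyond counting error, with 95% exact intervals by library total of 8.45 to 10.4, 4.61 to 6.18 and 3.22 to 4.51 CPM. The ratio of summed reads per total to the untreated group was 734, with a 95% counting interval of 131 to 29000 because it rests on 1 untreated read (edgeR adjusted p = 1.27e-10). The counts do not separate plasmid from chromosomal transcripts, and in these bulk libraries fewer cells of a type and less RNA per cell cannot be told apart. The neighbouring noncoding gene FENDRR had 0 or 1 read in each library, and the paralog FOXF2 had 130 to 219 reads in all 9.

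NDRG1 (chr8:133237171-133302022, minus strand), a stress-responsive gene and a known HIF target, had the smallest adjusted p among the genes described here. Its level was 125.2, 119.4 and 115.5 CPM in the untreated libraries and 395.3, 405.1 and 361.6 CPM with the FOXF1 plasmid. No library of one group came near the other. The rise was 3.23-fold, a log2 fold change of 1.69 ± 0.066 (SE; adjusted p = 3.64e-17). The vector libraries stood at 440.0, 433.1 and 407.6 CPM, above the FOXF1 plasmid libraries, and the difference between the transfected groups was not called (log2 -0.14 ± 0.064, SE; adjusted p = 0.502).

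CENPF (chr1:214603195-214664588, plus strand), a kinetochore protein made in G2 and mitosis, was lower. Its untreated libraries stood at 11.37, 14.17 and 9.27 CPM and the FOXF1 plasmid libraries at 7.98, 5.33 and 4.96 CPM. The groups did not overlap, although FOXF1 plasmid replicate 1 was close to untreated replicate 3. The log2 fold change was -0.93 ± 0.175 (SE; adjusted p = 6.61e-04). With the vector, CENPF stood at 6.18, 8.94 and 7.49 CPM, and the FOXF1 plasmid did not differ from it by call (log2 -0.31 ± 0.176, SE; adjusted p = 0.61).

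**Figure D3:**
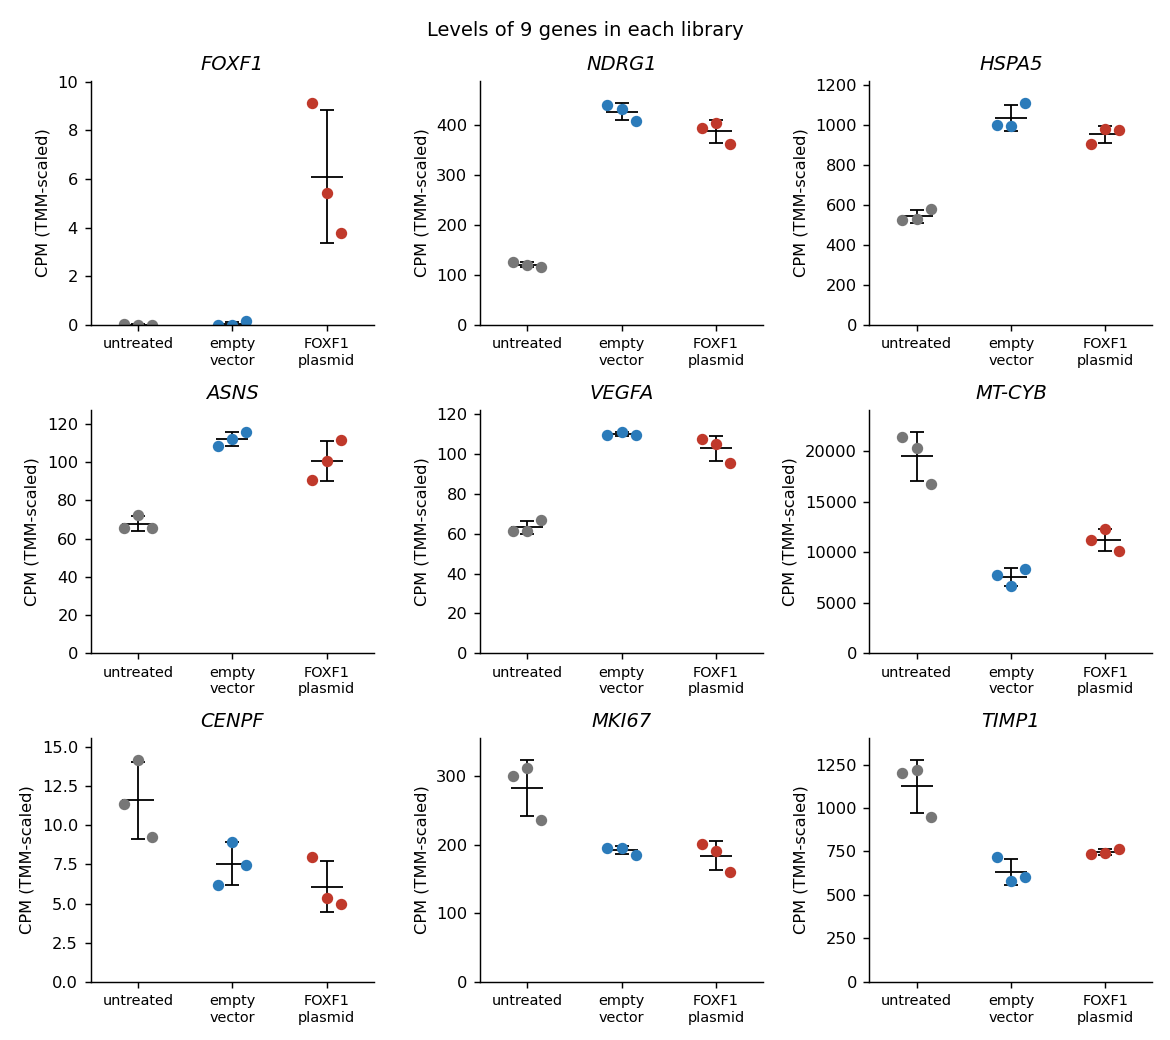
CPM of 9 genes in each library (dots) with group means and SD bars (n = 3). FOXF1 is high only in the plasmid libraries; for the other 8 genes both transfected groups lie on the same side of the untreated group.

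Most tested ER chaperones and folding enzymes rose. Of 24 members, 14 were called higher and 0 lower, with a median log2 fold change of 0.37 against 0.016 for all tested genes. HSPA5 (BiP), the main ER Hsp70 chaperone, stood at 521, 526 and 577 CPM untreated and at 903, 977 and 974 CPM with the FOXF1 plasmid, a log2 fold change of 0.81 ± 0.068 (SE). All 3 plasmid libraries were above all untreated ones. HSP90B1 (GRP94) went from 248 to 418 CPM (log2 0.75). PDIA4, a disulfide isomerase, went from 138 to 278 CPM (log2 1.01), the largest change of the list. CALR, a lectin chaperone, went from 1179 to 1854 CPM (log2 0.65), and HYOU1, a nucleotide exchange factor of BiP, from 535 to 845 CPM (log2 0.66). The calls did not cover the whole family: UGGT1, SIL1, DNAJC10 and DNAJC3 were not called, with log2 fold changes from -0.18 to 0.21. DNAJB9 had too few reads to test. In the vector, 16 members were called higher and 0 lower. HSPA5 stood there at 999, 991 and 1107 CPM.

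Of 27 export and degradation genes of the ER, 10 were called higher and 2 lower (median log2 0.16), against 14 and 3 with the vector. The lower calls depended on scaling, since library totals alone gave 17 higher and 0 lower (median log2 0.31). The counts were 6 higher without untreated replicate 1 and 1 lower without untreated replicate 2. Over all tested genes the shares were 4.63% higher and 3.89% lower with the FOXF1 plasmid, and 10.2% and 9.37% with the vector. XBP1, the transcription factor spliced by IRE1, rose from 91.5 to 119.2 CPM (log2 0.38). DERL3, a retrotranslocation factor, rose from 48.3 to 74.0 CPM (log2 0.62), and HERPUD1, an adaptor of the degradation complex, from 137 to 180.4 CPM (log2 0.40). The sensor IRE1 (ERN1) was not called (log2 0.03). The translocon-associated subunits SSR1 and SSR3 fell by 0.41 and 0.32 on the log2 scale with TMM scaling, SSR3 losing its call without untreated replicate 2 (adjusted p = 0.112), and the pore subunits SEC61B and SEC61A1 were not called (log2 -0.04 and 0.13).

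The integrated stress response list had 15 of 23 members called higher and 0 lower (median log2 0.40), against 19 and 1 with the vector. ATF4 itself rose from 217 to 304 CPM (log2 0.49). Its partner and effector DDIT3 (CHOP) stood at 4.46, 4.85 and 5.22 CPM untreated and at 9.35, 9.18 and 7.92 CPM with the FOXF1 plasmid, with no overlap (log2 0.86 ± 0.143, SE; adjusted p = 1.41e-04). TRIB3, a pseudokinase that feeds back on ATF4, rose from 60.03 to 98.2 CPM (log2 0.71). The secreted members changed most. INHBE, an activin beta subunit, rose from 5.43 ± 0.505 to 19.9 ± 2.66 CPM (SD, n = 3 each; log2 1.87). STC2, stanniocalcin 2, stood at 48.2, 49.0 and 45.9 CPM untreated and at 99.8, 109.2 and 100.3 CPM with the FOXF1 plasmid (log2 1.11), the libraries of each group lying close together. GDF15, a circulating stress hormone, was near the floor untreated at 0.313, 0.110 and 0.397 CPM and rose to 1.12, 1.91 and 1.41 CPM (log2 2.42). DESeq2 gave no adjusted p for GDF15, and the other 16 settings called it (adjusted p up to 0.00271). ATF3, ATF5 and CEBPG were not called (log2 0.37, -0.24 and 0.36), nor was the PERK gene EIF2AK3 (log2 0.30).

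Genes that supply amino acids made up the list with the largest share of calls among those of this response, 18 of 23 higher and 0 lower (19 and 0 with the vector), with a median log2 fold change of 0.50. ASNS stood at 65.3, 72.3 and 65.8 CPM untreated and 90.6, 100.5 and 111.5 CPM with the FOXF1 plasmid (log2 0.57 ± 0.072, SE; adjusted p = 2.60e-06). Every plasmid library was above every untreated one. PSAT1 of serine synthesis rose from 37.6 to 66.7 CPM (log2 0.83), and SLC6A9, a glycine transporter, from 8.79 to 16.4 CPM (log2 0.90). PCK2, mitochondrial PEP carboxykinase, rose from 133 to 213 CPM (log2 0.69). Both chains of the large neutral amino acid transporter rose, SLC7A5 from 485 to 685 CPM and SLC3A2 from 334 to 506 CPM. PHGDH, the first enzyme of serine synthesis, was not called (674 and 708 CPM), and SLC38A2 and GOT1 had log2 fold changes of -0.08. The cystine transporter SLC7A11 was called at low level (0.301 to 0.921 CPM, log2 1.60). That call was lost without untreated replicate 2 and without FOXF1 plasmid replicate 2 (adjusted p = 0.0726 and 0.0742), and in DESeq2. Among 20 aminoacyl-tRNA synthetases, which charge tRNAs, 8 were called higher and 2 lower, against 12 and 4 with the vector. There were 5 higher without untreated replicate 1 or FOXF1 plasmid replicate 3, and 11 higher and 0 lower with library totals alone. Over all tested genes the shares were 4.63% higher and 3.89% lower with the FOXF1 plasmid, and 10.2% and 9.37% with the vector. CARS rose by log2 0.53, SARS by 0.42, AARS by 0.41 and WARS by 0.34, FARSB fell by 0.39 on the log2 scale (not called without untreated replicate 2, adjusted p = 0.0659), and GARS was not called (log2 -0.14).

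**Figure D4:**
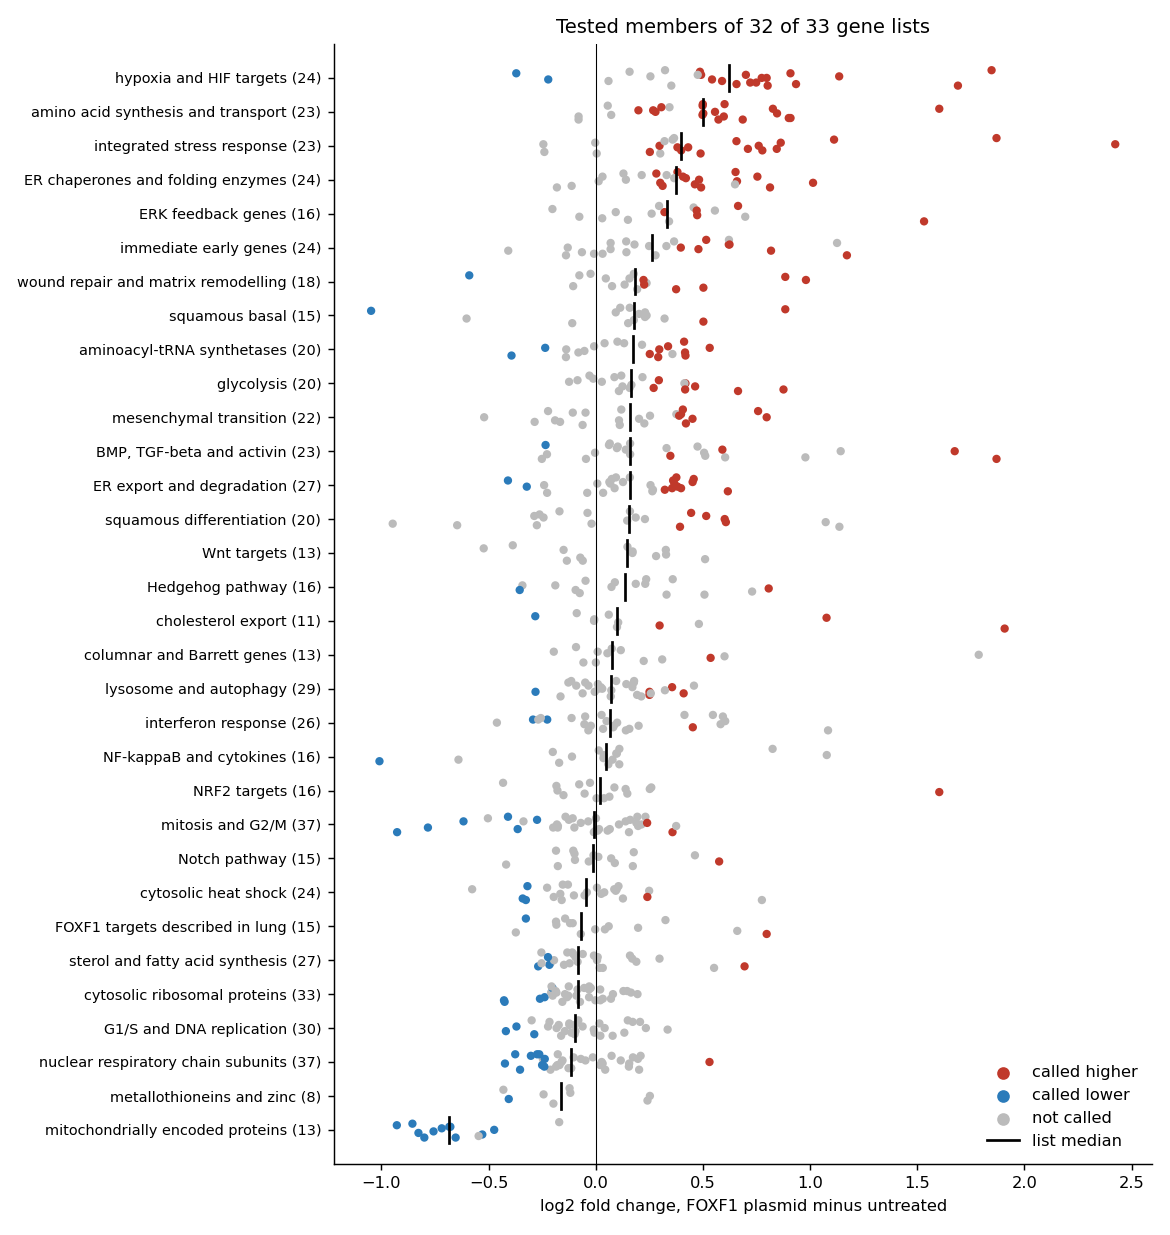
Log2 fold change, FOXF1 plasmid minus untreated, of the tested members of 32 of the 33 gene lists (dots, coloured by call), with the number tested in brackets and list medians as black bars, ordered by median. Hypoxia, amino acid, integrated stress and ER chaperone lists are at the top and the mitochondrially encoded list is at the bottom.

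Hypoxia and HIF target genes had the highest median of all 33 lists, a log2 fold change of 0.62, with 16 of 24 members called higher and 2 lower, against 20 and 1 with the vector. VEGFA, the angiogenic growth factor, stood at 61.3, 61.6 and 67.0 CPM untreated and at 107.7, 105.3 and 95.6 CPM with the FOXF1 plasmid (log2 0.70 ± 0.067, SE; adjusted p = 2.35e-08). The groups were well apart. CA9, carbonic anhydrase 9, rose from 106 to 159.8 CPM (log2 0.59). ANGPTL4, an inhibitor of lipoprotein lipase, rose from 4.42 ± 1.74 to 15.9 ± 2.63 CPM (SD, n = 3 each; log2 1.85), and ADM, the vasodilator adrenomedullin, from 6.16 to 13.6 CPM (log2 1.14). The HIF prolyl hydroxylases EGLN1 and EGLN3, which are also HIF targets, rose by log2 0.77 and 0.93. The 2 members called lower were HIF subunits themselves: HIF1A fell by 0.37 and EPAS1 by 0.22 on the log2 scale. HIF1A stood at 64.9, 76.5 and 66.0 CPM untreated and at 57.8, 48.4 and 54.1 CPM with the FOXF1 plasmid. The call of EPAS1 was lost without untreated replicate 2, FOXF1 plasmid replicate 1 or FOXF1 plasmid replicate 3 (adjusted p up to 0.139). Transcripts of HIF1A do not measure its protein, which is regulated by degradation. With library totals alone, 19 members were called higher and 0 lower.

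In glycolysis, 7 of 20 members were called higher and 0 lower (median log2 0.16), against 8 and 2 with the vector. Library totals alone gave 16 higher and 0 lower (median log2 0.31). Over all tested genes the shares were 4.63% higher and 3.89% lower with the FOXF1 plasmid, and 10.2% and 9.37% with the vector. The 7 called glycolysis members included hexokinase HK2 (29.01 to 46.0 CPM, log2 0.66) and PGK1 (1183 to 1632 CPM, log2 0.46). Another was PFKFB4, a maker of the phosphofructokinase activator (52.95 to 97.2 CPM, log2 0.88). The glucose transporter SLC2A1 of the hypoxia list also rose (212 to 335 CPM, log2 0.66). GAPDH (12760 and 12030 CPM), ENO1 (12500 and 12750 CPM) and LDHA (871 and 950 CPM) were not called, although ENO1 and LDHA were called higher with library totals alone.

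SREBF1, a master factor of fatty acid synthesis, stood at 215.7, 196.3 and 220.5 CPM untreated and at 332, 360 and 332 CPM with the FOXF1 plasmid (log2 0.69 ± 0.066, SE; adjusted p = 2.35e-08). It was the only one of 27 sterol and fatty acid synthesis genes called higher, and 3 were called lower with TMM scaling (FDFT1, MVK and DHCR7), whereas library totals alone gave 4 higher and 0 lower. The vector had 6 higher and 4 lower. Across all tested genes the FOXF1 plasmid had 4.63% called higher and 3.89% lower, and the vector 10.2% and 9.37%. The lower count of the list with the FOXF1 plasmid was 1 without untreated replicate 2 and 0 without FOXF1 plasmid replicate 1. FASN, fatty acid synthase, was not called (log2 -0.21), but 6 of 17 other settings called it lower, among them DESeq2 and the fit without untreated replicate 3 (adjusted p down to 0.00785). Cholesterol export genes had 3 of 11 called higher and 1 lower, against 4 and 0 with the vector. Library totals alone gave 6 higher and 0 lower. The higher count was 1 without untreated replicate 1 or FOXF1 plasmid replicate 2, and the lower count 0 without untreated replicate 1 or FOXF1 plasmid replicate 3. ABCA1, the cholesterol efflux pump, stood at 0.825, 0.882 and 0.624 CPM untreated and at 3.65, 2.35 and 2.75 CPM with the FOXF1 plasmid (log2 1.91 ± 0.253, SE; adjusted p = 6.02e-06). Its partner ABCG1 went from 0.785 to 1.67 CPM (log2 1.08), a call lost without untreated replicate 1, untreated replicate 3 or FOXF1 plasmid replicate 2 (adjusted p = 0.0779, 0.0774 and 0.141). The nuclear receptors that drive both, NR1H2 and NR1H3, were not called (log2 -0.09 and -0.01).

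Immediate early genes, which growth factors and stress induce within minutes, had 7 of 24 members called higher and 0 lower (median log2 0.26), against 10 and 0 with the vector and 12 and 0 with library totals alone. FOS stood at 2.27, 2.89 and 2.89 CPM untreated and 6.56, 6.77 and 4.85 CPM with the FOXF1 plasmid (log2 1.17). JUN rose from 46.9 to 72.1 CPM (log2 0.62), EGR1 from 11.8 to 20.7 CPM (log2 0.82) and MYC from 109 to 152 CPM (log2 0.48). In EGR1 the lowest plasmid library, 14.9 CPM, was below the highest untreated one, 15.4 CPM. FOSL2, JUNB and NR4A1 were not called (log2 -0.06, 0.14 and -0.01). Of 16 genes induced by ERK signalling or limiting it, 5 were called higher and 0 lower, against 9 and 1 with the vector and 9 and 0 with library totals alone. Over all tested genes the shares were 4.63% higher and 3.89% lower with the FOXF1 plasmid, and 10.2% and 9.37% with the vector. DUSP6, the phosphatase of cytoplasmic ERK, stood at 1.39, 1.32 and 0.964 CPM untreated and at 3.31, 3.77 and 3.60 CPM with the FOXF1 plasmid (log2 1.53). DUSP4 rose by log2 0.66, and SPRY2 and SPRED1 were not called (log2 0.56 and 0.70), although 6 of 17 other settings called SPRY2 (adjusted p down to 0.0135).

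Transcripts of the mitochondrial genome were lower in 11 of 13 genes, with a median log2 fold change of -0.68, and in 12 of 13 with the vector (median log2 -1.13). MT-CO2, a cytochrome oxidase subunit, stood at 60590, 56170 and 42160 CPM untreated and at 28200, 27980 and 27350 CPM with the FOXF1 plasmid (log2 -0.93 ± 0.107, SE; adjusted p = 6.12e-07). The plasmid libraries were close together and all below the untreated ones. MT-CYB, cytochrome b, went from 19490 ± 2420 to 11200 ± 1110 CPM (SD, n = 3 each; log2 -0.80). MT-ND1 was an exception: its plasmid libraries (11210, 17020 and 13630 CPM) overlapped the untreated ones (16420, 14890 and 15810 CPM), and it was not called (log2 -0.17). MT-ND6, the gene on the light strand, was not called either (log2 -0.55; adjusted p = 0.0725), although 6 other settings called it. Library totals alone also gave 11 lower and 0 higher (median log2 -0.53). These genes have near-identical nuclear copies, so the reads of single members are uncertain.

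Nuclear-encoded subunits of the respiratory chain moved less. With TMM scaling 1 of 37 was called higher and 9 lower (median log2 -0.12), but the direction depended on scaling, since library totals alone gave 9 higher and 3 lower. The vector had 3 higher and 17 lower. The lower count was 5, 4 and 3 without untreated replicate 1, untreated replicate 2 and FOXF1 plasmid replicate 1. The falls with the largest size were COX8A (258 to 192.4 CPM, log2 -0.42), ATP5G1 (142.5 to 109.8 CPM, log2 -0.38) and NDUFB10 (333 to 260.4 CPM, log2 -0.35). NDUFS1, SDHA and UQCRC1 were not called (log2 0.20, -0.07 and -0.18), although 3 of 17 other settings called UQCRC1 (adjusted p down to 0.0327). Of 33 cytosolic ribosomal protein genes, 5 were called lower and 0 higher with TMM scaling, but library totals alone gave 7 higher and 2 lower. With the vector 1 was called higher and 15 lower. RPL37A (1991 to 1480 CPM) and RPLP2 (1194 to 889 CPM) each fell by 0.43 on the log2 scale. The lower count was 2 without any one of untreated replicates 1 and 2 and FOXF1 plasmid replicates 1 and 2. Over all tested genes the shares were 4.63% higher and 3.89% lower with the FOXF1 plasmid, and 10.2% and 9.37% with the vector.

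Cell cycle genes did not move as a block. Of 37 mitosis genes, 2 were called higher and 6 lower with TMM scaling, and 7 higher and 4 lower with library totals alone. The vector had 8 higher and 7 lower. Across all tested genes the FOXF1 plasmid had 4.63% called higher and 3.89% lower, and the vector 10.2% and 9.37%. MKI67, the proliferation antigen Ki-67, stood at 300.6, 311.9 and 235.9 CPM untreated and 201.5, 191.1 and 160.7 CPM with the FOXF1 plasmid (log2 -0.62 ± 0.084, SE; adjusted p = 8.49e-06). TPX2, a spindle assembly factor, fell by 0.36 and ANLN, a cytokinesis scaffold, by 0.41 on the log2 scale, the latter not called without FOXF1 plasmid replicate 2 or 3 or with library totals alone. ASPM, a spindle pole protein, had a log2 fold change of -0.78, called in all libraries together but not without untreated replicate 2 or FOXF1 plasmid replicate 3 (adjusted p = 0.0797 and 0.0752). In the other direction KIF2C, a kinetochore kinesin, rose by log2 0.36 and BIRC5 (survivin) by 0.24, and 1 gene was called higher without any one of untreated replicates 1 and 2 and FOXF1 plasmid replicates 2 and 3. TOP2A, CCNB1, CDK1 and PLK1 were not called (log2 -0.10, 0.20, -0.03 and -0.07). Of 30 genes for G1/S and DNA replication, 3 were called lower and 0 higher with TMM scaling (MCM6, RFC4 and RRM2), but 0 lower and 3 higher with library totals alone, and 10 lower and 4 higher with the vector. CCND1, CCNE1 and PCNA were not called.

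The 15 largest rises and 15 largest falls were taken among 1225 called protein-coding genes whose groups did not overlap and whose mean log2 CPM was 1 or more. Besides genes already described, the rises held IGFBP3, a carrier of insulin-like growth factors (9.70 to 21.5 CPM, log2 1.15), GPR146, a G-protein-coupled receptor (1.43 to 3.17 CPM, log2 1.14), and KCNK3, a potassium leak channel (3.27 to 7.05 CPM, log2 1.11). CPVL, a carboxypeptidase, PNCK, a calmodulin-dependent kinase, and CGRRF1, a RING-finger protein, had log2 fold changes of 1.104, 1.09 and 1.07, and CGRRF1 was not called without untreated replicate 2 (adjusted p = 0.0655). The falls held RGS2, which limits G-protein signalling (4.54 to 2.15 CPM, log2 -1.07), DST, a cytoskeletal linker (7.49 to 3.62 CPM, log2 -1.05), and NIPBL, the cohesin loader (6.95 to 3.63 CPM, log2 -0.93). GAB2, a docking protein, PLD1, a phospholipase, ARHGDIB, a GDP-dissociation inhibitor, and UTRN, utrophin, had log2 fold changes of -0.84, -0.84, -0.81 and -0.79. PHIP (log2 -1.01), CCDC15 (-0.81) and MBNL2 (-0.79) were called less firmly. PHIP was lost without untreated replicate 1 or FOXF1 plasmid replicate 3 (adjusted p = 0.0521 and 0.0843), and CCDC15 and MBNL2 were each lost in 5 of the 6 fits that left out a library of these groups, with adjusted p up to 0.139 and 0.142. The longest transcripts of the 11 nuclear genes that fell had a median annotated length of 6092 bases, those of the rises 2412, and those of the 11413 tested genes at a mean log2 CPM of 1 or more had 3586.

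**Figure D5:**
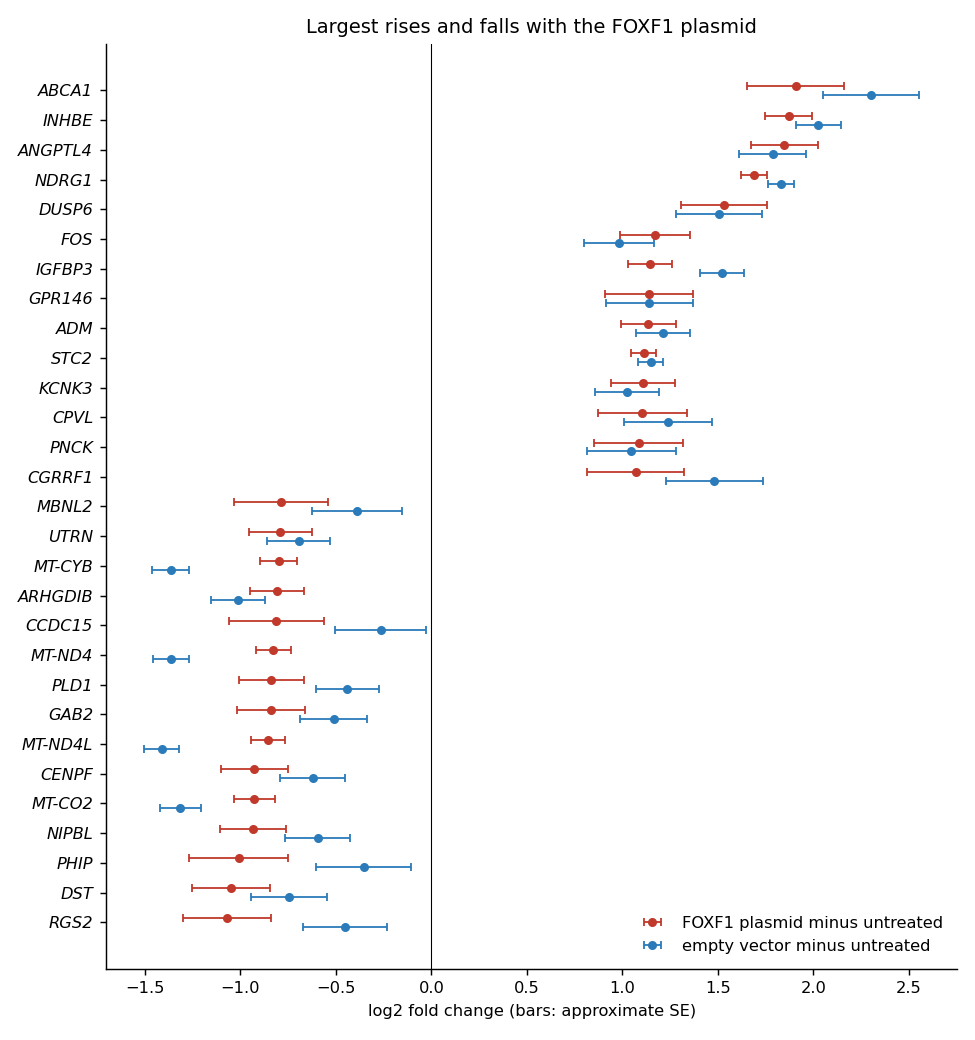
Log2 fold changes with approximate SE of the largest rises and falls (FOXF1 itself left out), for the FOXF1 plasmid (red) and the empty vector (blue), each against the same 3 untreated libraries. The mitochondrially encoded genes lie lower in the vector, and RGS2 and PHIP lie lower with the FOXF1 plasmid; of these differences only those of MT-ND4, MT-ND4L and MT-CYB were called.

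Groups tied to the study's title were examined next. Among 13 tested columnar and Barrett genes, 1 was called higher and 0 lower (7.69%, beside 4.63% of all tested genes called higher), 3 were called higher with library totals alone, and the vector had 1 higher and 2 lower. It was SOX9, a columnar transcription factor, at 8.93, 10.1 and 11.1 CPM untreated and 14.96, 14.8 and 13.9 CPM with the FOXF1 plasmid (log2 0.54 ± 0.113, SE; adjusted p = 2.17e-03). Its level with the vector was 14.2, 15.5 and 15.3 CPM. KRT8 did not change detectably (1437 CPM in both groups), KRT18 was not called, except in 3 of 17 other settings that called it lower (adjusted p down to 0.0182), and 23 listed genes, among them CDX2, MUC2, MUC5AC and TFF3, had too few reads to test. Of 15 tested squamous basal genes, 2 were called higher, among them LAMB3, a laminin chain (9.73 to 17.96 CPM, log2 0.88), and DST was called lower. Library totals alone gave 8 higher and 1 lower, offsets for GC content and length gave 5 and 1, and the vector had 5 and 1. Over all tested genes the shares were 4.63% higher and 3.89% lower with the FOXF1 plasmid, and 10.2% and 9.37% with the vector. Of 20 tested squamous differentiation genes 5 were called higher and 0 lower, 8 and 0 with library totals alone, 5 and 2 in DESeq2, and 4 and 3 with the vector. They include EMP1 (log2 0.61), KLF4 (log2 0.52), PPL (log2 0.45) and KRT10 (21.1 to 27.7 CPM, log2 0.39, not called without untreated replicate 2 or FOXF1 plasmid replicate 2), while TGM1 and CSTA were not called, and IVL and KRT13 had too few reads.

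Of 18 tested wound repair and matrix genes, 6 were called higher and 1 lower, against 8 and 1 with the vector. There were 3 higher without untreated replicate 2. PLAU, urokinase, rose from 38.5 to 49.9 CPM (log2 0.38). MMP9, a gelatinase, went from 2.11 to 4.16 CPM (log2 0.98) and lost its call without untreated replicate 2 (adjusted p = 0.0803). TIMP1, the inhibitor of that protease class, fell, with 1203, 1221 and 950 CPM untreated and 733, 743 and 765 CPM with the FOXF1 plasmid (log2 -0.59 ± 0.083, SE; adjusted p = 1.44e-05). ITGA5, an integrin subunit, was not called (log2 0.13). Among 22 mesenchymal genes, 7 were called higher and 0 lower, against 8 and 2 with the vector. Of these, 5 were collagens or enzymes that cross-link them: COL6A3 (7.96 to 13.5 CPM, log2 0.76), LOX (22.3 to 38.7 CPM, log2 0.80), LOXL2 (log2 0.42), COL1A1 (1210 to 1604 CPM, log2 0.41) and COL5A1 (log2 0.39). SNAI2 and PDGFRB were the other members called, and SNAI2 lost its call in 5 of the 6 fits that left out a library (adjusted p up to 0.241). VIM and CDH2 were not called (log2 -0.06 and -0.19), and neither were SNAI1, TWIST1, ZEB1 and ZEB2. LOX was also the member called higher among 15 tested genes described as FOXF1 targets in lung, where HSPA1A was called lower (log2 -0.33 with TMM scaling, not called with library totals alone) and the remaining 13, including STAT3, CDC25B and NOTCH2, were not called. With the vector 2 of these genes were called higher and 5 lower. Across all tested genes the FOXF1 plasmid had 4.63% called higher and 3.89% lower, and the vector 10.2% and 9.37%.

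In the Hedgehog pathway, 1 of 16 members was called higher and 1 lower, against 2 and 0 both with the vector and with library totals alone. The list counts of this paragraph stand beside 4.63% of all tested genes called higher and 3.89% called lower with the FOXF1 plasmid. With the vector these shares were 10.2% and 9.37%. FOXL1, a forkhead gene next to FOXF1 in the genome, stood at 5.35, 6.56 and 6.52 CPM untreated, 11.3, 10.2 and 10.7 CPM with the FOXF1 plasmid and 10.9, 11.6 and 11.2 CPM with the vector (log2 0.81 ± 0.13, SE, for plasmid against untreated). The Hedgehog co-receptor CDON went from 14.9 to 11.6 CPM (log2 -0.35; adjusted p = 0.0436) and was called in 1 of the 6 fits that left out a library of these groups. GLI1 (3.03 and 4.31 CPM), PTCH1 and SMO were not called, although GLI1 was called without untreated replicate 1 (log2 0.82; adjusted p = 0.0249) and with library totals alone (adjusted p = 0.0489). Of 23 BMP, TGF-beta and activin genes, 4 were called higher (INHBE, NOG, ID1 and TGFBR2) and ID3 lower (log2 -0.23), against 6 higher and 2 lower with the vector. The call of ID3 was lost with library totals alone and in 4 of the 6 fits that left out a library (adjusted p up to 0.12). NOG, a BMP antagonist, was at low level (0.335 to 1.09 CPM) and lost its call without untreated replicate 1 or FOXF1 plasmid replicate 2 (adjusted p = 0.0835 and 0.0548) and in DESeq2, and the ligands TGFB1, TGFB2 and BMP4 were not called. In the Notch pathway HES1 was the 1 member of 15 called (7.13 to 10.6 CPM, log2 0.58), a call lost without untreated replicate 2 (adjusted p = 0.0983), and the vector had 2 higher and 0 lower. None of 13 Wnt targets was called in edgeR with TMM scaling or in DESeq2, but library totals alone called 3 higher, the vector had 2 higher and 1 lower, and AXIN2 had a log2 fold change of -0.06.

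Other stress and immune programmes are set beside the 4.63% of all tested genes called higher and 3.89% called lower with the FOXF1 plasmid. With the vector these shares were 10.2% and 9.37%. Cytosolic heat shock genes had 1 of 24 called higher and 3 lower with TMM scaling, and 4 higher and 1 lower with library totals alone. The vector had 6 higher and 5 lower. Their higher count was 0 to 3 when a library was left out. Of 16 NRF2 targets SLC7A11 alone was called, with 0 to 2 called higher when a library was left out and 5 with library totals alone (3 higher and 2 lower with the vector), while NQO1 and HMOX1 were not (log2 0.04 and 0.09). Interferon-response genes had 1 of 26 called higher, IFI6 (17.5 to 24.0 CPM, log2 0.45), and 2 lower, ISG15 and OAS3, against 5 and 4 with the vector. Library totals alone gave 7 higher and 0 lower, and offsets for GC content and length gave 5 higher and 1 lower. The calls of ISG15 (log2 -0.29) and OAS3 (log2 -0.23) were lost in 3 and 4 of the 6 fits that left out a library, with adjusted p up to 0.0635 and 0.155. IFIT1 was not called (0.786 and 1.67 CPM), but 6 of 17 other settings called it higher (adjusted p down to 0.0137). CCL2 was the 1 of 16 NF-kappaB and cytokine genes called, at 1.67 and 0.83 CPM (log2 -1.01; adjusted p = 0.0439), and no fit that left out a library of these groups called it. Library totals alone called 0 lower and 3 higher members, and the vector had 2 lower and 0 higher. Lysosome and autophagy genes had 4 of 29 called higher, among them the cathepsins CTSL (log2 0.41) and CTSB (log2 0.36), and 1 lower, against 9 and 3 with the vector and 8 and 0 with library totals alone. The higher count was 2 in 4 of the 6 fits that left out a library. Metallothionein MT1E fell by 0.41 on the log2 scale, and the other 7 tested genes of that list were not called with TMM scaling, against 2 lower and 0 higher with the vector.

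The 2 transfected groups were each compared with the same untreated libraries, so their values are given side by side and only the direct test bears on their difference. Of all 16366 genes, 9 (0.055%) were called between the FOXF1 plasmid and the vector, 9 higher and 0 lower, against 833 higher and 710 lower at an unadjusted p under 0.05. DESeq2 called 108. The number also hung on single libraries, from 1 without FOXF1 plasmid replicate 2 and 2 without vector replicate 2 to 326 without vector replicate 1. The fold changes of this comparison followed base composition across genes more than those against untreated cells. The Spearman correlation with GC content over 16213 genes was 0.387, against -0.038 for the FOXF1 plasmid and -0.27 for the vector against untreated, as a description of genes that share libraries.

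FOXF1 was 1 of the 9, with 122 times as many reads per total as in the vector (95% counting interval 55.9 to 334; adjusted p = 8.80e-10). The 4 mitochondrially encoded genes, MT-CYB, MT-ND4, MT-ND4L and MT-ATP8, and 3 nuclear copies of such genes, MTATP6P1, MTND2P28 and MTND4P12, stood between untreated and vector levels. MT-CYB was at 11190, 12310 and 10090 CPM with the FOXF1 plasmid and 7721, 6614 and 8366 CPM with the vector (log2 0.57 ± 0.096, SE; adjusted p = 5.73e-03). The last was PRAF2, a small membrane protein of the secretory pathway, at 208.5, 204.6 and 185.1 CPM untreated, 152.0, 168.5 and 149.5 CPM with the FOXF1 plasmid and 132.3, 114.8 and 121.7 CPM with the vector. It was lower in both transfected groups and less so with FOXF1 (log2 0.35 ± 0.069, SE, against the vector; adjusted p = 0.0391). That adjusted p was the largest of the 9. Only 1 gene was called between the plasmids without FOXF1 plasmid replicate 2, and only 2 without vector replicate 2. Apart from the mitochondrially encoded list, no member of any of the 33 lists was called between the transfected groups. For HSPA5 the difference was log2 -0.12 ± 0.068, for ASNS -0.16 ± 0.071, for VEGFA -0.10 ± 0.066, for TIMP1 0.24 ± 0.083 and for MKI67 -0.06 ± 0.084 (SE each; adjusted p from 0.376 to 0.878). A missed threshold with 3 libraries a group does not show that the plasmids act alike.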

How the data were processed

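RNA sequencing of polyadenylated RNA from 9 EPC2 libraries, 3 per group, was used as deposited. Per the file headers, the authors deposited unnormalized counts of reads for 64253 Ensembl genes. Tools named in the submitters' processing notes are bcl2fastq, STAR 2.5.2b and HTSeq, with the build GRCh38. The kit is stranded, per the labels' protocols. Strand setting and annotation release were not given in the sources used here, so reads of overlapping, antisense or near-identical genes may be assigned in ways the counts do not show.

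All 9 libraries entered 1 edgeR 4.0.16 quasi-likelihood fit (R 4.3.3) with TMM factors and filterByExpr at a minimum count of 10. This left 16366 genes, 13248 of them protein coding. P-values are 2-sided and Benjamini-Hochberg adjusted over all 16366 genes. Each SE was taken as the size of the log2 fold change over the square root of F. CPM values used TMM-scaled library sizes. Replicates differed by far more than sampling noise (chi-square per degree of freedom 9.17 to 25.28), so none was merged. Intervals and limits cover counting error only.

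Named genes were FOXF1, NDRG1 and CENPF, the 15 largest rises and falls under the stated filters, genes called between the transfected groups, and from each of 33 lists its first 3 genes and its 3 called members with the largest change. Other list members were named after their values were seen. The members, lists and rules were chosen with earlier results of these data known. Alternatives were DESeq2 1.42.0, limma-voom (limma 3.58.1), other scalings and filters, leaving out each library and a replicate block, and, chosen after seeing the data, GC and length offsets. Gene coordinates are from GENCODE 29 and promoters from RefSeq on GRCh38.p14. Code was tested on simulated data. Some listed genes and 1 list are not reported here.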

Additional observations from a re-analysis of the deposited data

How the results depend on the processing

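Counts of higher, lower and between-plasmid calls in edgeR were recomputed under each alternative. Library totals alone gave 2320 higher and 180 lower genes for the FOXF1 plasmid against untreated and 6059 calls for the vector against untreated (3209 with TMM). A test against a 1.2-fold change gave 131 higher and 64 lower. Offsets for GC content and length, chosen after seeing the data, gave 1175 and 957, and 14 calls between FOXF1 plasmid and vector. That last number, 9 in the report, was 16 with RLE factors, 96 without a filter on low counts, 108 in DESeq2 and 4 without mitochondrially encoded genes. Leaving out 1 library gave 440 to 761 higher genes, 350 to 770 lower genes, 1 to 326 calls between the plasmids and 2092 to 3897 for the vector against untreated. The cause of these shifts was not tested. The fits that left out 1 library also had fewer libraries in a group.

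Replicate numbers are shared between the groups. Deviations from the group mean of same-numbered untreated and FOXF1 plasmid libraries had correlations of 0.0195, -0.215 and 0.109. For untreated and vector libraries these were 0.246, 0.101 and 0.0855, and for FOXF1 plasmid and vector libraries -0.252, -0.225 and 0.126. With 3 libraries a group these values cannot decide whether same-numbered libraries were paired. A fit with a replicate block gave 851 higher and 693 lower genes, of which 1376 calls were shared with the 1394 of the fit without it, and 16 calls between the plasmids. Of 116 called values of named genes, 60 were called under every setting run, 56 were not called in at least 1, and 0 changed sign. The settings include the stricter test against a 1.2-fold change, the only setting that did not call SOX9, CTSL or PLAU. A gene without an adjusted p in DESeq2 counted as not called. At this depth a gene without a read could have had up to 0.087 CPM.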

Other observations

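The share of calls differed between classes of transcript length, without a steady trend from short to long. Over 16213 genes the Spearman correlation of log2 fold change with length was 0.0014 for the FOXF1 plasmid against untreated. It was 0.164 for the vector against untreated. Among 501 tested genes whose longest annotated transcript was under 1000 bases and whose mean log2 CPM was at least 1, 13 were called higher and 62 lower with the FOXF1 plasmid (2.59% and 12.4%). In the class of 1000 to 2000 bases, 5.05% were called higher and 8.53% lower. Among 4346 genes of 2000 to 4000 bases, 320 were called higher and 199 lower (7.36% and 4.58%). In the class of 4000 to 8000 bases the shares were 5.89% and 3.87%. Among 916 genes of 8000 bases or more the counts were 52 and 69 (5.68% and 7.53%). The median log2 fold change of the shortest class was -0.07 with the FOXF1 plasmid and -0.17 with the vector, both against the same untreated libraries. The part of transcript length in the calls was not tested beyond the fit with GC and length offsets.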
